A study of Schizosaccharomyces pombe with 6 samples.

Results

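The genes described here code for enzymes of the tricarboxylic acid (TCA) cycle and for subunits of the mitochondrial respiratory chain and ATP synthase of the fission yeast Schizosaccharomyces pombe. They were chosen by name, as 42 gene symbols sorted by complex, and 35 of the 42 had an annotated probe set of their own among the 2896 S. pombe genes tested. These are 6 TCA cycle enzymes, 3 subunits of complex II, 9 of complex III and cytochrome c, 7 of complex IV and 10 of ATP synthase. The genes aco1, kgd1, mdh1, nde1, nde2, ndi1 and cox7 were not analysed here, so none of the NADH dehydrogenases was covered. RefSeq lists nde2 as a synonym of nde1.

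The TCA cycle oxidises acetyl groups in the mitochondrial matrix and hands electrons to NADH and, at complex II, to ubiquinone. Complex III passes them through cytochrome c to complex IV, which reduces oxygen, and ATP synthase uses the proton gradient that results. Fission yeast has no proton-pumping complex I and relies on single-subunit NADH dehydrogenases. On plentiful glucose it mostly ferments, and genes for respiration and for other carbon sources are held lower than on poor ones.

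All 6 arrays hold total RNA from mixtures of the h+ strain YHL6381 and the h- strain SPQ-01. Each strain was first grown on its own in YEPD (30 °C, OD600 of 5.0), and equal parts were then mixed and kept for 90 min in fresh YEPD (3 arrays) or YEPME (3 arrays), the medium in which the mixtures flocculate. The labels give no further genotype and call the replicates biological. For the YEPME samples the strain label names a diploid, while their other labels name the mixture. The design text assigns the sample codes to the media in the opposite way to the sample labels, and the medium named for each sample was followed here: every YEPME minus YEPD sign below would turn with the other reading. All 5 measured P cell markers (of h+ cells) and all 8 M cell markers (of h- cells) lay above the background limit, the 95th percentile of the S. cerevisiae probe sets on the same array, on all 6 arrays, by at least 0.33 and 0.07 on the log2 scale. In RNA from whole cultures, fewer cells of a type and less RNA per cell cannot be told apart.

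Replicate 1 of both media stood apart from replicates 2 and 3. Across all genes, arrays of replicates 2 and 3 correlated at 0.994 to 0.999, the replicate 1 pair at 0.975, and arrays of replicate 1 with the others at 0.884 to 0.920. Values of the replicate 1 arrays carry up to 10 digits in the deposited table and those of the others up to 6. The labels name no batch. Differences between media are therefore given for each replicate pair, and the level in replicate 1 is set against that in replicates 2 and 3 as a comparison of its own.

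Every measured TCA cycle and respiratory chain gene had a higher level in replicate 1 than in replicates 2 and 3, in both media. The 35 genes were higher by a median of 1.03 on the log2 scale (2.04-fold), from 0.40 for idp1 to 1.69 for cyt1, against a median of 0.00 over all 2896 genes. All 35 passed limma with the medium as a covariate (Benjamini-Hochberg adjusted p under 0.05 over all genes; highest adjusted p = 0.00770), and 0 were lower. The split was made because replicate 1 was already known from these data to lie apart, and the fit takes its 2 arrays as independent. These p-values and the intervals below thus measure the spread between arrays, not how often a replicate would stand apart. Of all genes tested, 35.0% were called higher and 36.0% lower in this comparison, 71.0% in all. A level at least 2-fold higher was reached by 19 of the 35, against 7.01% of all genes. For all 35 both replicate 1 arrays lay above the 4 other arrays, as they did for 38.5% of all genes, and they lay below for 0 of the 35 and 38.3% of all genes. The gap between the lower replicate 1 array and the highest of the other 4 ran from 0.23 to 1.52. Of the 35 differences, 23 lay in the top 10% of all genes and 33 in the top 20%.

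**Figure D1:**
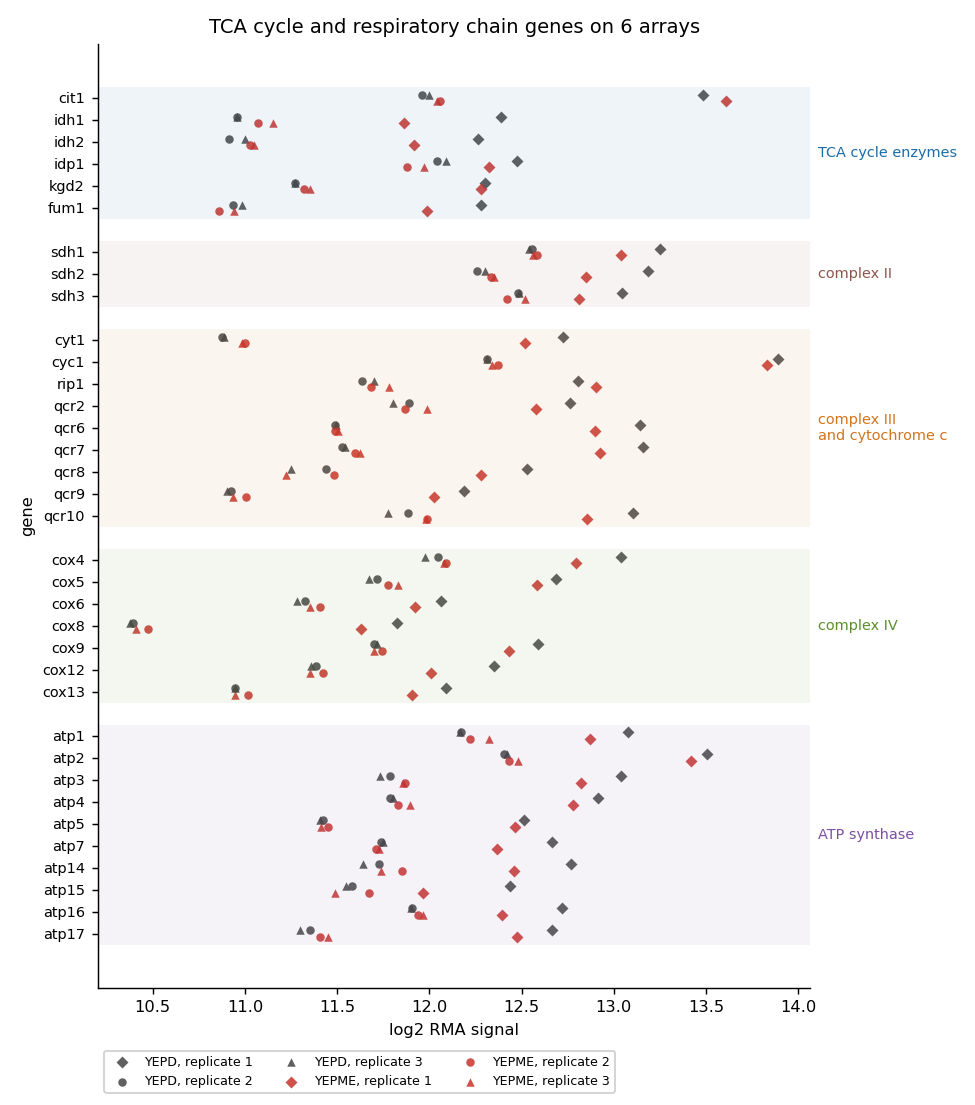
Log2 RMA signal of the 35 genes on the 6 arrays, grouped by complex, with YEPD in grey and YEPME in red and a symbol for each replicate number. In every row both diamonds (replicate 1) lie to the right of the 4 symbols of replicates 2 and 3, by at least 0.23.

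Among the TCA cycle enzymes, cit1 (SPAC6C3.04), for citrate synthase, read 13.49, 11.96 and 12.00 in YEPD and 13.61, 12.06 and 12.04 in YEPME, replicates 1, 2 and 3 in that order. Both replicate 1 values stood well above the others, and the difference of 1.53 ± 0.045 (SE; 6 arrays) was 2.90-fold (95% interval 2.67 to 3.14; limma, adjusted p = 4.1e-05). idh1 (SPAC11G7.03) and idh2 (SPBC902.05C) code for the subunits of NAD-dependent isocitrate dehydrogenase. idh1 read 12.39, 10.96 and 10.96 in YEPD and 11.86, 11.07 and 11.15 in YEPME. idh2 read 12.26, 10.92 and 11.00 in YEPD and 11.92, 11.03 and 11.05 in YEPME. The partners differed by nearly the same amount, 1.09 ± 0.16 and 1.09 ± 0.11 (SE). fum1, for fumarase, was higher by 1.20 ± 0.07, and kgd2, for the succinyltransferase subunit of oxoglutarate dehydrogenase, by 0.99 ± 0.05. The smallest difference of all 35 belonged to idp1 (SPAC6G10.08), for the NADP-dependent isocitrate dehydrogenase, with 12.47, 12.04 and 12.09 in YEPD and 12.32, 11.88 and 11.97 in YEPME. Its difference of 0.40 ± 0.05 (SE) was 1.32-fold (95% interval 1.21 to 1.45), an interval that ends below those of the other 5 TCA cycle enzymes.

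In complex II, the succinate dehydrogenase that serves both the cycle and the chain, the differences were the smallest of the 5 groups by median (0.58). sdh1 (SPAC1556.02C), for the flavoprotein subunit, read 13.25, 12.55 and 12.54 in YEPD and 13.04, 12.58 and 12.56 in YEPME, a difference of 0.58 ± 0.07 (SE). sdh2, for the iron-sulfur subunit, was higher by 0.71 ± 0.10, and sdh3, for a membrane anchor subunit, by 0.45 ± 0.07. The 3 genes thus lay between 1.37- and 1.63-fold, while tim18, listed as sdh4 on the array and kept outside the 35, was higher by 0.63 ± 0.09.

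Complex III and cytochrome c held the largest differences, with a median of 1.16 and a range from 0.78 to 1.69. cyt1 (SPBC29A3.18), for cytochrome c1, read 12.72, 10.88 and 10.89 in YEPD and 12.52, 11.00 and 10.99 in YEPME. Its 3.22-fold difference (95% interval 2.78 to 3.72; limma, adjusted p = 1e-04) was the largest of the 35. cyc1 (SPCC191.07), for cytochrome c itself, read 13.89, 12.31 and 12.31 in YEPD and 13.83, 12.37 and 12.34 in YEPME, 2.88-fold higher in replicate 1 (95% interval 2.64 to 3.14). The small subunit genes qcr6 and qcr7 were close to it at 1.53 ± 0.07 and 1.47 ± 0.08 (log2, SE). qcr6, for the acidic hinge subunit of budding yeast complex III, was also the steadiest of the 35 over replicates 2 and 3, at 11.49, 11.50, 11.49 and 11.51. rip1, for the Rieske iron-sulfur protein, was higher by 1.15 ± 0.05, qcr9 by 1.16 ± 0.07, qcr10 by 1.07 ± 0.10 and qcr8 by 1.06 ± 0.11. qcr2 (SPCC613.10), for a core subunit, had the smallest difference of this group, 0.78 ± 0.08, and its interval (1.49- to 1.99-fold) lies wholly below that of cyt1. The estimates thus varied between subunits of this 1 complex, though genes were not tested against each other.

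For complex IV, cytochrome c oxidase, the 7 measured genes code for small nuclear-encoded subunits. Their core partners are encoded in mitochondrial DNA and were not analysed here. cox8 (SPAC24C9.16C) read 11.83, 10.39 and 10.38 in YEPD and 11.63, 10.48 and 10.41 in YEPME, and its difference of 1.31 ± 0.07 (SE) was 2.48-fold. cox13 followed with 1.03 ± 0.07, then cox5 with 0.89 ± 0.07, cox4 with 0.87 ± 0.08, cox12 with 0.80 ± 0.09 and cox9 with 0.80 ± 0.06. cox6 (SPAC1B2.04) had the smallest, from 12.07, 11.32 and 11.28 in YEPD and 11.92, 11.40 and 11.36 in YEPME, at 0.65 ± 0.07 or 1.57-fold. The 95% interval of cox8 (2.18 to 2.83) does not meet that of cox6 (1.39 to 1.77), while those of cox4, cox5, cox9 and cox12 overlap.

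ATP synthase differences ran from 0.63 to 1.19 with a median of 0.95. Within the catalytic head, atp2 (SPAC222.12C), for the beta subunit, read 13.51, 12.41 and 12.42 in YEPD and 13.42, 12.43 and 12.48 in YEPME, 2.04-fold higher in replicate 1 (95% interval 1.85 to 2.24). atp1, for the alpha subunit, was higher by 0.75 ± 0.09, and atp3, for the gamma subunit of the central stalk, by 1.12 ± 0.08 (log2, SE). The other stalk subunits, delta (atp16) and epsilon (atp15), had the smallest differences of the complex, 0.63 ± 0.09 and 0.63 ± 0.13. The highest adjusted limma p of the 35, 0.00770, was that of atp15 (SPBC31F10.15C), which read 12.44, 11.58 and 11.55 in YEPD and 11.97, 11.67 and 11.49 in YEPME. Of the peripheral stalk and membrane subunits, atp5 was higher by 1.06 ± 0.05, atp4 by 1.02 ± 0.06, atp14 by 0.88 ± 0.11 and atp7 by 0.78 ± 0.07. atp17, for a membrane subunit, had the largest difference of the complex, 1.19 ± 0.08.

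**Figure D2:**
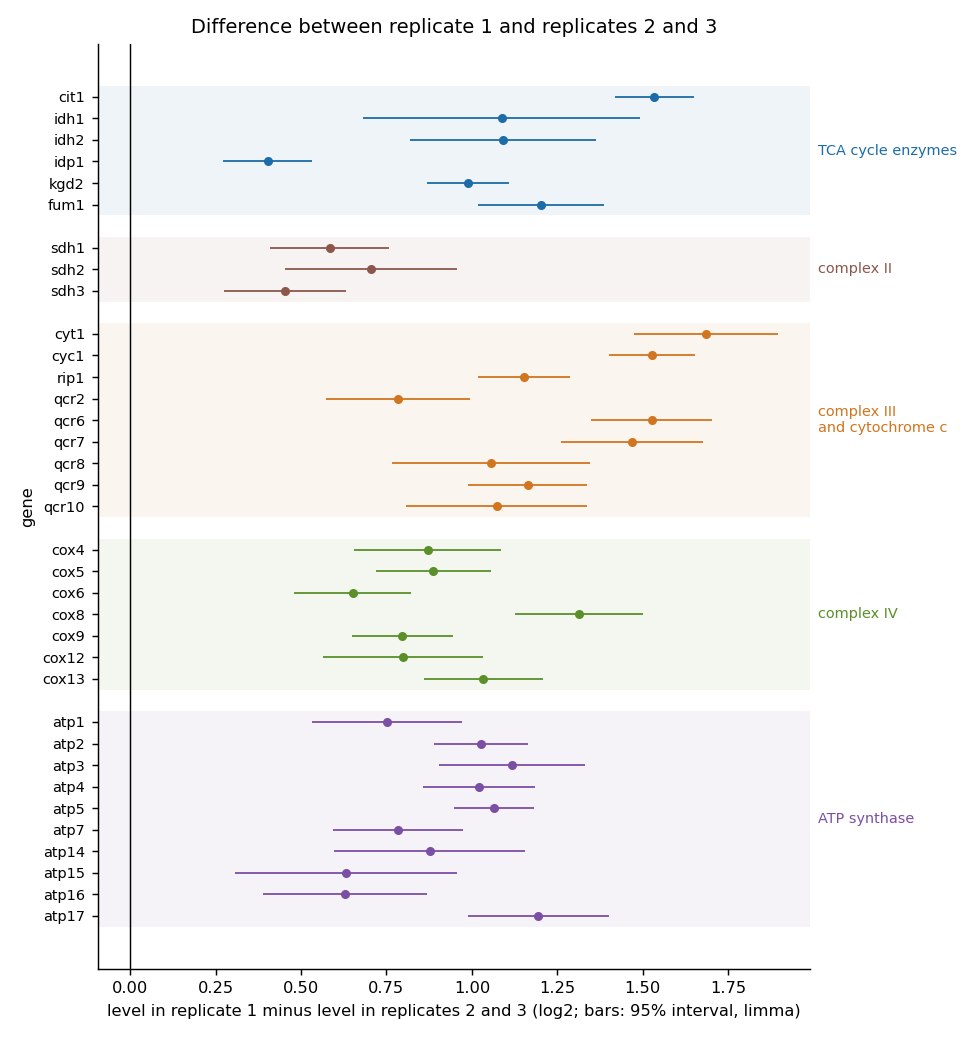
Level in replicate 1 minus level in replicates 2 and 3 for each of the 35 genes (log2, limma estimate with 95% interval, medium as a covariate), grouped by complex. Every interval lies above 0, and cyt1 with 1.69 and idp1 with 0.40 mark the ends.

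This comparison holds the difference between 1 pair of arrays and 4 others, and whether all 6 arrays were normalized in 1 run is not given in the sources used here. Quantile normalization over the S. pombe genes lowered the median of the 35 from 1.03 to 0.89 and left all 35 called higher. The members lay at 10.38 to 13.89 on the log2 scale, far above the background limit. That limit was itself higher in replicate 1, at 5.60 in YEPD and 5.59 in YEPME, against 4.78 to 4.81 on the other 4 arrays. Among the 976 genes at least as bright on average as the dimmest of them, 42.0% were called higher and 29.8% lower.

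**Figure D3:**
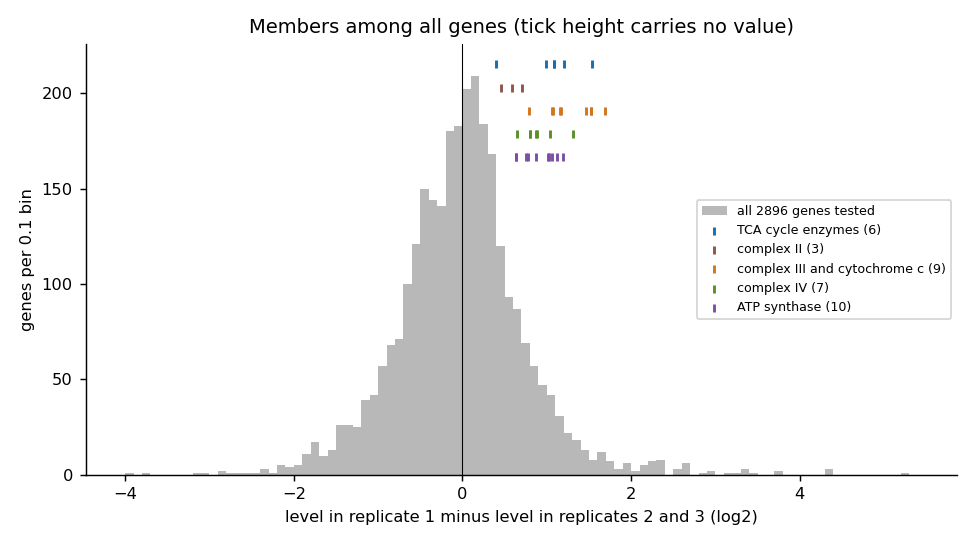
Histogram of the level in replicate 1 minus that in replicates 2 and 3 (log2) for all 2896 genes, with ticks for the measured genes of each complex above it. The ticks run from 0.40 to 1.69, while the histogram is centred near its median of 0.00.

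Neighbouring parts of mitochondrial metabolism did not all stand higher in replicate 1. Of 5 measured genes for subunits of pyruvate dehydrogenase, which feeds the cycle, 1 was called higher and 2 lower, against 35.0% and 36.0% of all genes. The gene called higher was dld1, by 0.38 ± 0.07, for the dihydrolipoamide dehydrogenase that oxoglutarate dehydrogenase uses as well. pda1, for the alpha subunit of its first enzyme, differed by -0.25 ± 0.04 (limma, adjusted p = 0.00459), and pdx1 by -0.31 ± 0.09. The 5 genes belong to a list of 11 further genes of the cycle and its entry points, of which 4 were higher and 3 lower, with a median of -0.05. In that list the malic enzyme gene mae2 was higher by 0.55 ± 0.04 and osm1, a fumarate reductase gene in budding yeast, lower, at -0.89 ± 0.15. lsc1, for a subunit of the cycle's own succinyl-CoA ligase, differed by -0.11 ± 0.06 (adjusted p = 0.133).

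Of 16 assembly factors and accessory subunits of the respiratory complexes, 12 were called higher and 1 lower, with a median of 0.52. The gene etp1, matched here through its synonym cox15, is also counted in the iron-sulfur list below. cbp3, for a factor of complex III assembly known from budding yeast, was higher by 1.20 ± 0.08, cox17, for the copper chaperone of complex IV, by 1.17 ± 0.09 and atp18, for an ATP synthase subunit, by 1.05 ± 0.16, while atp23 was lower, at -0.42 ± 0.05. Of 20 genes listed for coenzyme Q and haem synthesis, 8 were higher and 2 lower, against 35.0% and 36.0% of all genes, with a median of 0.25. The share called higher was thus near that of all genes, and the share called lower was smaller. hem15, for ferrochelatase, was higher by 1.46 ± 0.12 and dps1, for decaprenyl diphosphate synthase, by 1.38 ± 0.05, and hem4 was lower, at -0.92 ± 0.07. In that list abc1 may be another gene than the coenzyme Q factor meant, and without it 8 of 19 were higher and 1 lower. Of 9 genes for iron-sulfur cluster assembly, 3 were higher and 3 lower (median -0.14), and of 13 listed for mitochondrial gene expression 5 were higher and 3 lower (median 0.14). In both lists the share called higher lies near the 35.0% of all genes. The share called lower lies near their 36.0% for the iron-sulfur list and is smaller for the mitochondrial gene expression list. In the latter list mss51 was higher by 1.16 ± 0.08 and ppr5, for a pentatricopeptide repeat protein, lower at -1.66 ± 0.08. cbp1 and cbs2 may not act in mitochondria, and without them 5 of 11 were higher and 2 lower.

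The largest neighbouring shifts were in genes of carbon and iron supply. Of 17 glucose-repressed genes and their regulators, 13 were called higher in replicate 1 and 1 lower, with a median of 2.32. gut2, for mitochondrial glycerol-3-phosphate dehydrogenase, which feeds electrons to ubiquinone, was higher by 4.38 ± 0.12 (SE; limma, adjusted p = 3.8e-05), and inv1, for invertase, by 4.38 ± 0.12. Of 9 iron uptake genes, 6 were lower and 2 higher, with a median of -1.77. fip1, for the iron permease, differed by -3.72 ± 0.09 and frp1, for the ferric reductase, by -3.19 ± 0.10. For the CCAAT-binding complex, which activates respiratory genes in yeasts, php5 and php2 were higher by 0.59 ± 0.06 and 0.45 ± 0.16, and php3 was lower, at -0.50 ± 0.08. php4, for the partner through which the complex represses iron-using genes when iron is scarce, was lower too, at -0.50 ± 0.05. scr1, for a repressor active on glucose, was higher by 0.86 ± 0.13, and rst2, for an activator it opposes, differed by 0.19 ± 0.08 (adjusted p = 0.0930). Of the 8 M cell markers 4 were higher and 0 lower, and of the 5 P cell markers 1 was higher and 2 lower, beside 35.0% and 36.0% of all genes. The summed signal of the M cell markers was 13.82 and 12.35 (log2) on the replicate 1 arrays of YEPD and YEPME and 11.96 to 12.20 on the other 4. That of the P cell markers was 12.63 and 12.68, against 12.40 to 12.66, and the 13 markers were all above the background limit. The margin was smallest for mfm1, an M cell marker, on the YEPME array of replicate 1, at 0.07 on the log2 scale. Whether the carbon, iron or cell type shifts have a part in the respiratory gene difference was not tested.

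**Figure D4:**
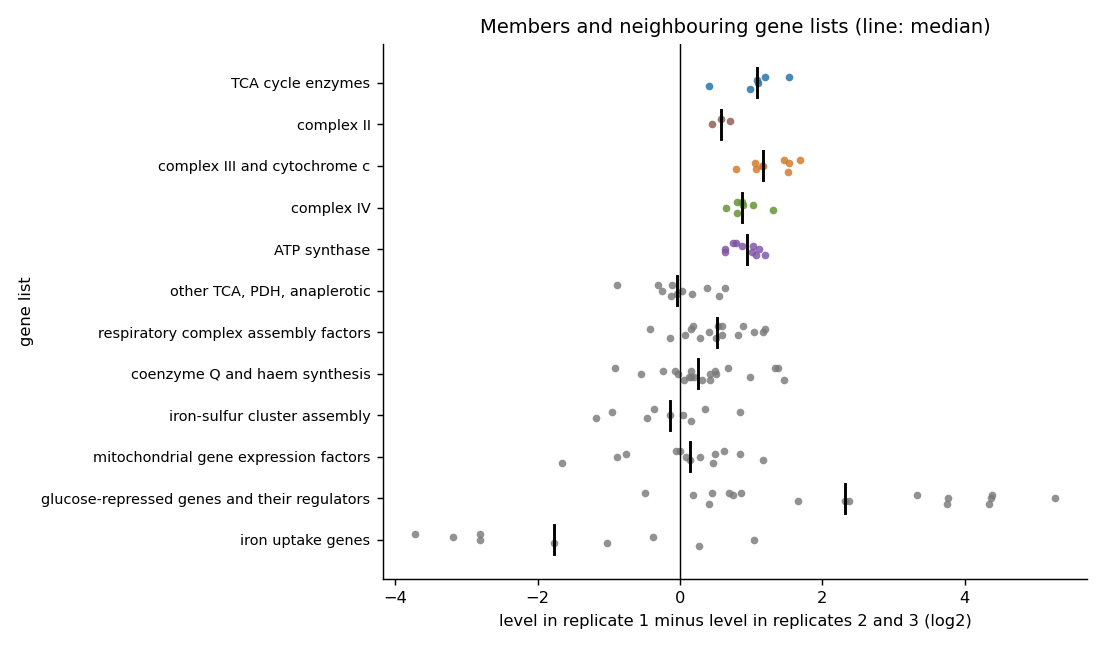
Level in replicate 1 minus level in replicates 2 and 3 (log2) for each gene of the 5 member groups (coloured) and of 7 neighbouring lists (grey), with a black line at each median. PDH stands for pyruvate dehydrogenase. The member groups lie wholly above 0, with medians from 0.58 to 1.16, whereas the glucose-repressed list reaches 5.28 and the iron uptake list -3.72.

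For the change of medium, the comparison the study was designed for, estimates over 6 arrays average replicate pairs of unlike direction. The median of the 35 was -0.21 in the replicate 1 pair and 0.05 in each of the replicate 2 and 3 pairs. Over all 6 arrays 0 of the 35 passed limma with no block (adjusted p = 0.999 for each), and 0.00% of all 2896 genes did. At an unadjusted p under 0.05 there were 0 of the 35 and 32 of all genes. With the replicate number as a block, 0 of the 35 passed as well (lowest adjusted p = 0.459). The estimates ran from -0.15 for atp15 to 0.09 for cit1, with a median of -0.03. Their 95% intervals reached from -1.68 to 1.69, since the spread of each medium holds the offset of replicate 1. A block for replicate 1 against the others narrowed the intervals to between -0.45 and 0.31. 0 of the 35 passed this fit (lowest adjusted p = 0.239), against 2.07% of all genes (0.760% higher and 1.31% lower).

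Within replicates 2 and 3, where arrays of a medium differed by a median of 0.04 for these genes, the difference could be bounded closely. 0 of the 35 passed limma on these 4 arrays (lowest adjusted p = 0.0658), while 15.6% of all genes did (6.91% higher and 8.70% lower in YEPME). At an unadjusted p under 0.05 there were 7 of the 35, against 34.3% of all genes. All 35 intervals of 95% lay between -0.27 and 0.29 on the log2 scale, so that changes of 0.3 or more lay outside each interval. The differences were small and mostly positive, from -0.14 to 0.16 with a median of 0.06 (1.04-fold). In the replicate 2 pair 29 of the 35 were higher in YEPME, and 27 in the replicate 3 pair, against 51.5% and 50.4% of all genes. Both YEPME arrays lay above both YEPD arrays for 22 of the 35 and below for 2, against 32.5% and 30.6% of all genes.

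With the replicate number as a block in these 4 arrays, idh1 and qcr10 rose and idp1 fell, 3 of the 35 against 24.0% of all genes. idh1 was at 10.96 and 10.96 in YEPD and 11.07 and 11.15 in YEPME in replicates 2 and 3, a difference of 0.15 ± 0.04 (SE; limma, adjusted p = 0.0658 without the block and 0.0357 with it). qcr10 (SPBP4H10.08), for a small subunit of complex III, read 11.88 and 11.77, then 11.99 and 11.98, a difference of 0.16 ± 0.05 (adjusted p = 0.0858 and 0.0390). idp1 went the other way, from 12.04 and 12.09 to 11.88 and 11.97, at -0.14 ± 0.04 (adjusted p = 0.0992 and 0.0421). cyt1, at 0.11 ± 0.03, did not pass either fit (adjusted p = 0.0733 and 0.0789). In size the differences reached 0.11 among complex IV and ATP synthase genes and 0.06 among complex II genes, and 0 of these 20 passed either fit.

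Around the respiratory chain, the counts within replicates 2 and 3 are to be read against the 15.6% of all genes that passed without a block and the 24.0% with the replicate block. Of the 16 assembly factors and accessory subunits, atp11, for an ATP synthase assembly factor, rose by 0.18 ± 0.03 (limma, adjusted p = 0.0256). Of the coenzyme Q and haem list, dps1 rose by 0.24 ± 0.03 and coq9 by 0.14 ± 0.03, and hem4 fell, at -0.20 ± 0.03. Of the 13 genes listed for mitochondrial gene expression ppr8 rose, by 0.21 ± 0.04, and of the 11 further cycle genes and of the 9 iron-sulfur genes 0 passed (2 of each had an unadjusted p under 0.05). php4 fell, at -0.29 ± 0.04 (adjusted p = 0.0175), and grx4, for a glutaredoxin that acts with it, at -0.18 ± 0.04 (adjusted p = 0.0468). With the replicate block 7 more genes of the neighbouring lists passed. cbp6, a complex III assembly factor gene, then rose by 0.14 ± 0.04 (adjusted p = 0.0444), and fep1 and ght1 rose as well. isu1, for the iron-sulfur scaffold protein, fell, at -0.14 ± 0.04 (adjusted p = 0.0387), as did hem1, ppr5 and fip1. php2, php3 and php5 differed by 0.10 ± 0.06, -0.05 ± 0.03 and 0.07 ± 0.04 and did not pass either fit. Without the block, of the 17 glucose-repressed genes and regulators, 8 rose and 0 fell, among them gut2 by 1.20 ± 0.06. Of the 9 iron uptake genes 3 rose and 4 fell, of the 5 P cell markers 4 rose and 0 fell, and of the 8 M cell markers 2 rose and 0 fell, while 0 of the 35 respiratory genes passed. Whether these shifts have a part in the small differences above was not tested.

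In replicate 1 the same genes lay lower in YEPME. Of the 35, 33 were lower there, against 55.6% of all genes, with a median of -0.21 and a range from -0.52 for idh1 to 0.12 for cit1. All 10 ATP synthase, all 7 complex IV and all 3 complex II genes were among the 33, and cit1 and rip1 were the exceptions. Of the 8 M cell markers 7 were lower in YEPME in this pair too, with a median of -0.97 and a range from -2.41 to 0.36, and of the 5 P cell markers 1. Even so, for all 33 the YEPME array of replicate 1 stayed above the 4 arrays of replicates 2 and 3. Only cit1 and rip1 were higher in YEPME in all 3 pairs, and idp1, fum1 and atp7 lower in all 3, 2 and 3 of the 35 against 16.7% and 20.2% of all genes.

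**Figure D5:**
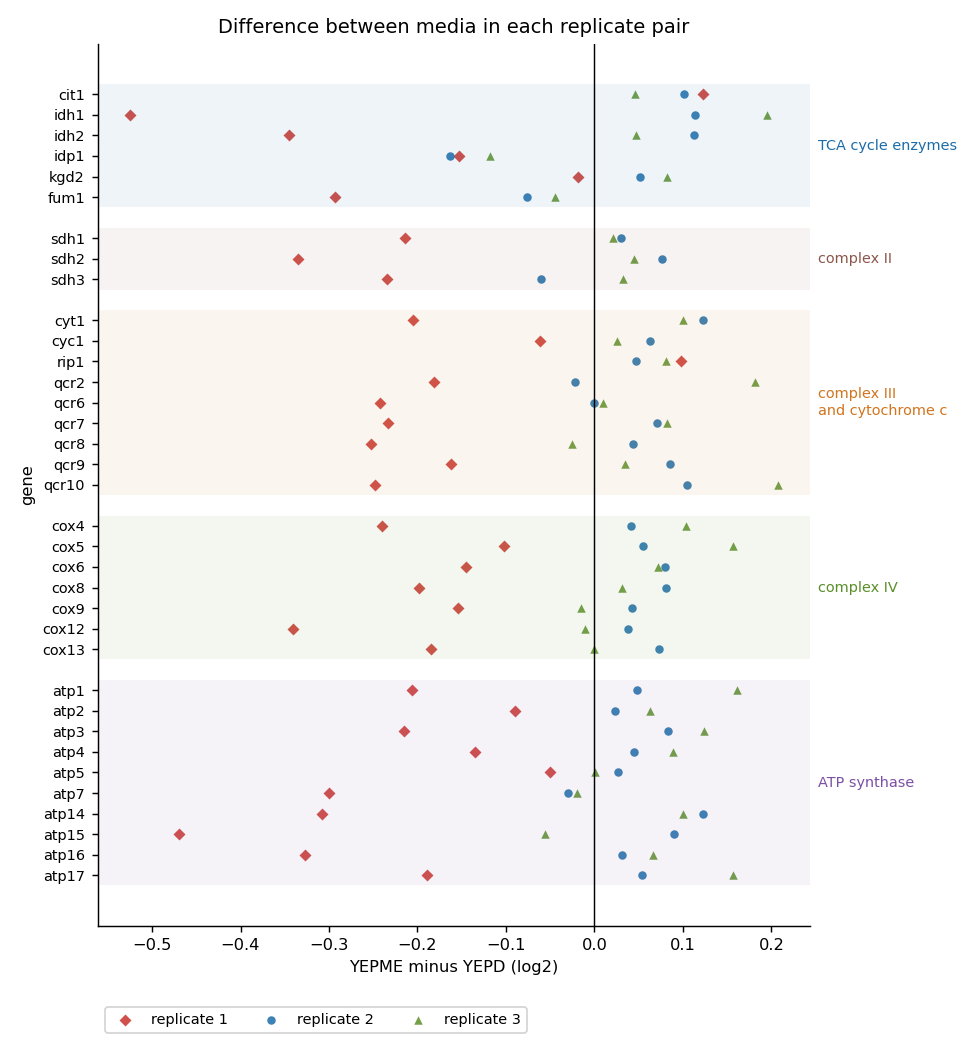
YEPME minus YEPD (log2) in each replicate pair for the 35 genes, grouped by complex. Replicate 1 (red diamonds) lies below 0 in all rows but those of cit1 and rip1, down to -0.52, while replicates 2 and 3 lie between -0.16 and 0.21.

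The difference between media itself departed between replicate 1 and replicates 2 and 3 for 21 of the 35 genes, all towards lower values in replicate 1 (limma interaction of medium and replicate 1, adjusted p under 0.05). Over all genes 27.4% departed in that direction and 19.0% in the other, 46.4% in all. idh1 departed most, from 0.15 over replicates 2 and 3 to -0.52 in replicate 1, an interaction of -0.68 ± 0.07 (SE; adjusted p = 0.00294). atp15 followed at -0.49 ± 0.115 (adjusted p = 0.0258), and idh2, the partner of idh1, was next at -0.42 ± 0.07 (adjusted p = 0.0105). In complex II, sdh2 departed by -0.40 ± 0.06 (adjusted p = 0.00763). By group, 2 of 6 TCA cycle enzymes, 2 of 3 complex II, 5 of 9 complex III and cytochrome c, 5 of 7 complex IV and 7 of 10 ATP synthase genes passed. cit1 (0.05 ± 0.06), rip1 (0.03 ± 0.08) and idp1 (-0.01 ± 0.08) had interactions nearest to 0 and did not pass. The M cell markers departed in the same direction, 7 of 8, from -0.26 for sxa2 to -3.15 for mfm2, and of the P cell markers 1 of 5 did. So did 12 of the 20 coenzyme Q and haem genes (4 departed the other way). The part of cell type in the result was not tested. Replicate 1 has 1 array per medium, so this test takes its arrays to vary like those of replicates 2 and 3. The count varied with the array left out: fewer of the 35, and of all genes, passed without YEPD replicate 2 or 3. Without YEPME replicate 2 or 3 the counts did not fall. Each of these fits leaves 1 array of a medium in replicates 2 and 3, so its error comes from the pair of the other medium alone.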

How the data were processed

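Biotin-labelled cRNA from total RNA was hybridised to 6 Affymetrix arrays, 3 per medium. The values deposited by the authors are log2 RMA signals of each probe set, and the submitters' processing notes name RMA and Partek. Versions and settings, and whether RMA was run once on all 6 arrays, are not stated there. RMA corrects background, normalizes quantiles and summarises probes, and it compresses differences of dim and very bright probe sets.

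Of the probe sets, 2914 were annotated with 1 S. pombe gene, and their names were taken from the RefSeq annotation ASM294v3 through gene numbers (3 through the symbol). They gave 2896 genes, with the brightest probe set used for the 14 genes with several. The 2600 S. cerevisiae probe sets served as background. With 6 arrays, precision is limited by their number.

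The tests were limma 3.58.1 in R 4.3.3 (lmFit, eBayes, two-sided, Benjamini-Hochberg over all 2896 genes). They compared the media over 6 arrays with no block and within replicates 2 and 3. They also tested the interaction of medium and replicate 1 and the level in replicate 1 against the others. On simulated arrays with the replicate 1 offset, the 6-array fit found 0 of 50 changes of 0.5 (log2) and 16 of 50 of 1.0. The fit within replicates 2 and 3 found 2 of 50 changes of 0.25 and 33 of 50 of 0.5. The simulated noise was the spread left by a 6-array fit with medium and replicate 1. That spread also holds any departure of the medium difference in replicate 1. The counts for replicates 2 and 3 therefore come from noise unlike that of those arrays, and do not measure what that fit can find. Small changes between media could still go uncalled in both fits. In the 6-array fits a block alters the error of the difference, not the estimate. The replicate block takes same-numbered arrays as pairs. Same-numbered arrays deviated together from their group means across genes (r = 0.853, 0.836 and 0.836 for replicates 1, 2 and 3). Unlike-numbered arrays of replicates 2 and 3 did so nearly as much (0.816). The group means hold the offset of replicate 1, so these values cannot show a pairing within replicates 2 and 3. Nothing in the labels says whether replicates came from separate cultures beyond the word biological, so p-values measure the spread between these arrays.

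The members, gene lists and tests were chosen with earlier results of these data known. All measured members may be named. From each neighbouring list, up to 4 genes past a test, by size, and up to 2 bright ones not past it, could be named, with set regulators. The 5 pyruvate dehydrogenase subunits, tim18, mfm1, mfm2, sxa2, the genes passing with the replicate block and the lists without abc1, cbp1 and cbs2 were singled out after their values were seen. Set tests were not run.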

Additional observations from a re-analysis of the deposited data

Results flagged for a closer look

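For 21 of 35 genes the difference between media in replicate 1 departed from that in replicates 2 and 3 in the interaction test of limma, by the log2 amounts that follow. Among TCA cycle enzymes these were idh1 (-0.68) and idh2 (-0.42), and in complex II sdh2 (-0.40) and sdh1 (-0.24). In complex III they were qcr10 (-0.40), cyt1 (-0.32), qcr7 (-0.31), qcr6 (-0.25) and qcr9 (-0.22). In complex IV they were cox12 (-0.35), cox4 (-0.31), cox8 (-0.25), cox6 (-0.22) and cox13 (-0.22). In ATP synthase they were atp15 (-0.49), atp14 (-0.42), atp16 (-0.38), atp3 (-0.32), atp1 (-0.31), atp17 (-0.29) and atp7 (-0.27). Each of these differences between media is lower in replicate 1, a single pair of arrays, while the levels of all 35 genes were higher there. Of all genes 27.4% departed in that direction and 46.4% in either. Without YEPD replicate 2 or 3, fewer of the 35 passed, and fewer of all genes did too, while without YEPME replicate 2 or 3 the counts did not fall.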

How the results depend on the processing

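The level in replicate 1 was called higher for all 35 genes under each alternative run: arrays centred on the median, quantile normalization, removal of dim genes, averaged probe sets, trend and robust settings, each array left out, and a test among bright genes alone, added after seeing the data. That last test called 428 genes higher and 300 lower of 976. Removal of dim genes kept 2870 of the 2896 genes, and averaging concerned the 14 with several probe sets, so these runs could change little. Between media over 6 arrays, 0 members passed under any alternative. With replicate 1 against the others as a block 22 genes were higher and 38 lower, and 0 to 200 and 0 to 252 with each array left out as well. The 200 and 252 came without a replicate 1 array. The block then absorbs the remaining replicate 1 array, which leaves the fit within replicates 2 and 3. With the replicate block 0 genes passed. Within replicates 2 and 3 the replicate block called 326 genes higher and 369 lower, with 2 members higher and 1 lower, and trend and robust settings 381 and 372, with 7 members higher and 1 lower. Centring called 1 member (idh1, adjusted p = 0.0449). Leaving out each array gave 13 to 209 genes higher, 6 to 274 lower and 0 to 1 members higher (idh1 without YEPME replicate 2). The lowest genome-wide counts, 13 and 14 higher with 6 lower, came without YEPD replicate 2 or 3. For the interaction, leaving out an array of replicates 2 and 3 gave 256 to 604 genes higher, 336 to 835 lower and 4 to 24 members lower, and quantile normalization 16 members. No called member changed sign. Uncalled differences over 6 arrays changed sign 159 times in 420 with an array left out.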
